A study of Mus musculus with 20 samples.

Results

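The 10 genes described here encode transcription factors that set the identity of sensory neurons in the dorsal root ganglion. They are the nociceptor factors Runx1 and Tlx3, the large-fibre factors Runx3, Shox2, Etv1 and Maf, and the factors shared by most sensory neurons, Pou4f1, Pou4f2, Pou4f3 and Isl1. They were chosen by name, with earlier results of these data known. All 10 were found by their Ensembl identifiers among the 55416 genes in the count tables. They passed the filter on low counts in every comparison.

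Nociceptors, the small neurons that report pain, temperature and itch, and the large-fibre neurons that report touch and limb position arise from common precursors. Pou4f1 and Isl1 act early and broadly in that lineage. The runt-domain factors then part the branches in mouse, Runx1 in nociceptors and Runx3 in TrkC-positive proprioceptive neurons, and Prdm12, a zinc-finger regulator, is required for nociceptors to form.

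The study profiled polyA RNA of lumbar ganglia (L3, L4 and L5) from adult C57Bl6 mice of both sexes, with a formalin library and a noninjected library from each of 10 animals. All animals, controls included, carried floxed Prdm12 alleles and received tamoxifen 1 month earlier, and the inducible conditional knockouts (icKO) also carried a tamoxifen-inducible Cre. The sample characteristics name an Adv-driven CreERT2, which would act in sensory neurons, whereas Rosa26CreERT2, which would act in most cells, stands in the series text. The labels describe ganglia of 3 lumbar levels, and formalin, an irritant that causes inflammatory pain, as the agent.

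The genotype word in the deposited record of the counts and the genotype in the sample title differ for 4 of the 10 animals. Below, icKO and control follow the deposited record. The icKO animals were then those titled icKO 1, icKO 4, icKO 5, control 1 and control 4, and the control animals were those titled control 2, control 3, control 5, icKO 2 and icKO 3. The groups held 4 icKO formalin, 5 icKO noninjected, 5 control formalin and 5 control noninjected libraries, of 11763893 to 22392635 counts each. The icKO 1 formalin library held 2829 counts and was left out.

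Prdm12, the targeted gene, separated the animals by the deposited record and not by the titles. Levels are CPM, counts divided by the TMM-scaled library size and multiplied by 1e+06, and an animal total is the sum of that animal's libraries. For icKO 1 the total is its noninjected library alone, so in that total animal and agent cannot be told apart. Animal totals of Prdm12 were 25.9 CPM (titled control 1), 32.7 CPM (titled control 4), 23.6 CPM (icKO 1), 18.1 CPM (icKO 4) and 18.3 CPM (icKO 5) in icKO animals. In control animals they were 101 CPM (control 2), 84.1 CPM (control 3), 97.2 CPM (control 5), 73.1 CPM (titled icKO 2) and 98.4 CPM (titled icKO 3). A further comparison used only the 6 animals whose title and deposited record match (icKO 1, 4 and 5, and control 2, 3 and 5). Tsfm and Cdk4, neighbours of Avil, whose promoter is the Adv driver, also parted by the deposited record, with Cdk4 at 105 to 119 CPM in icKO and 46.4 to 54.1 CPM in control animals.

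Promoter windows of 300 bases, 250 before and 50 after the start site, were taken from RefSeq (GRCm38.p6), which held 11 windows for 8 of the 10 genes. The upstream windows of Runx1 and Runx3 are shown because the runt-domain core TGTGGT, searched on both strands, occurred in pairs in both, and the windows of Tlx3 and Pou4f1 because differences of these genes are described below. Capitals mark the core, which reads ACCACA on the printed strand.
Runx1 chr16:92826025-92826324 (minus strand): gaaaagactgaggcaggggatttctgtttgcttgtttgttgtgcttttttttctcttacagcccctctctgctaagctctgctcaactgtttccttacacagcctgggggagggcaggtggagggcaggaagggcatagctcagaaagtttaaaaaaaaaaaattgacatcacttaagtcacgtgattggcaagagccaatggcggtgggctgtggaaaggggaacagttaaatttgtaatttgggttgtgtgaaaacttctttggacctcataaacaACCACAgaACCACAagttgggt
Runx3 chr4:135120395-135120694 (plus strand): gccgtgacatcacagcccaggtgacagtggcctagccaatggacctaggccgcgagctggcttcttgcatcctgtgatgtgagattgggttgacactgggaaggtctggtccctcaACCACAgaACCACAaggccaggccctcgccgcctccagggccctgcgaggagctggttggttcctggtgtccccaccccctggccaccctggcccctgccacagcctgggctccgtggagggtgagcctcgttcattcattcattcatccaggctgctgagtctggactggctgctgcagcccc
Tlx3 chr11:33203539-33203838 (minus strand): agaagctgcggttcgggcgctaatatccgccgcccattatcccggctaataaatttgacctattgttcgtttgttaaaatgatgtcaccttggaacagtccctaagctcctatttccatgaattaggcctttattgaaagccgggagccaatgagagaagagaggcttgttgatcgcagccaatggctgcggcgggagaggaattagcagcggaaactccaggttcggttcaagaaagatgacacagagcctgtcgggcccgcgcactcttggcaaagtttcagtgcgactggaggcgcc
Pou4f1 chr14:104467950-104468249 (minus strand): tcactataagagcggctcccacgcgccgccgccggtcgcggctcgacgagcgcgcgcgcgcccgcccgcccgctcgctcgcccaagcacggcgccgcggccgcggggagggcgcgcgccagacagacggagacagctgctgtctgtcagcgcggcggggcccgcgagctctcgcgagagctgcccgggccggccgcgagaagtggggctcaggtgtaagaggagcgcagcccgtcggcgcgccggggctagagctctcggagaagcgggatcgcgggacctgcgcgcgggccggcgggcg
Runx1 and Runx3 held the same run of 14 bases, ACCACAgaACCACA, with the starts of the cores 8 bases apart. In Runx1 the cores began 29 and 37 bases after the start site, and in Runx3 they began 134 and 126 bases before it. The core TGTGGT was in 16.8% of all 32851 promoter windows, so a single match is common. The Tlx3 and Pou4f1 windows held no match to TGTGGT, to the homeodomain core TAATTA (5.29% of all windows), to the POU octamer ATGCAAAT (1.74%) or to the ETS core CCGGAAGT (3.89%). The downstream windows of Runx1 and Runx3 held none either, and no match overlapped another. The windows differed in base composition, with 45% GC in Runx1, 63.7% in Runx3, 51.7% in Tlx3 and 78.3% in Pou4f1, against a median of 52.7% over all windows.

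All 10 factors were detected in every library, from 45 counts for Runx3 in its lowest library to 3723 counts for Isl1 in its highest. Per kilobase of merged exons (GENCODE M21) and as mean ± SD over 19 libraries, Isl1, a LIM-homeodomain factor, stood highest at 36.2 ± 4.04 CPM per kb. Pou4f1 (26.3 ± 4.53 CPM per kb), the POU-domain factor also known as Brn3a, and Tlx3 (25.1 ± 7.89 CPM per kb), a homeodomain factor, followed and did not differ beyond their spread. Pou4f3 had 12 ± 3.26 CPM per kb and Maf 8.93 ± 2.23 CPM per kb, again within their spread. Runx1 had 6.92 ± 0.711 CPM per kb and Etv1 6.26 ± 1.01 CPM per kb. Pou4f2 had 4.44 ± 0.613 CPM per kb and Shox2 3.29 ± 0.814 CPM per kb. Runx3 was lowest at 1.1 ± 0.41 CPM per kb. The order of whole-ganglion levels put the nociceptor factor Runx1 beside the large-fibre factors Etv1 and Maf, and the large-fibre factor Runx3 below all other members. The library kit did not mark the strand, so reads of Runx1, Shox2 and Maf cannot be told apart from those of Gm26626, Rsrc1 and Gm15655, whose exons overlap theirs on the opposite strand.

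**Figure D1:**
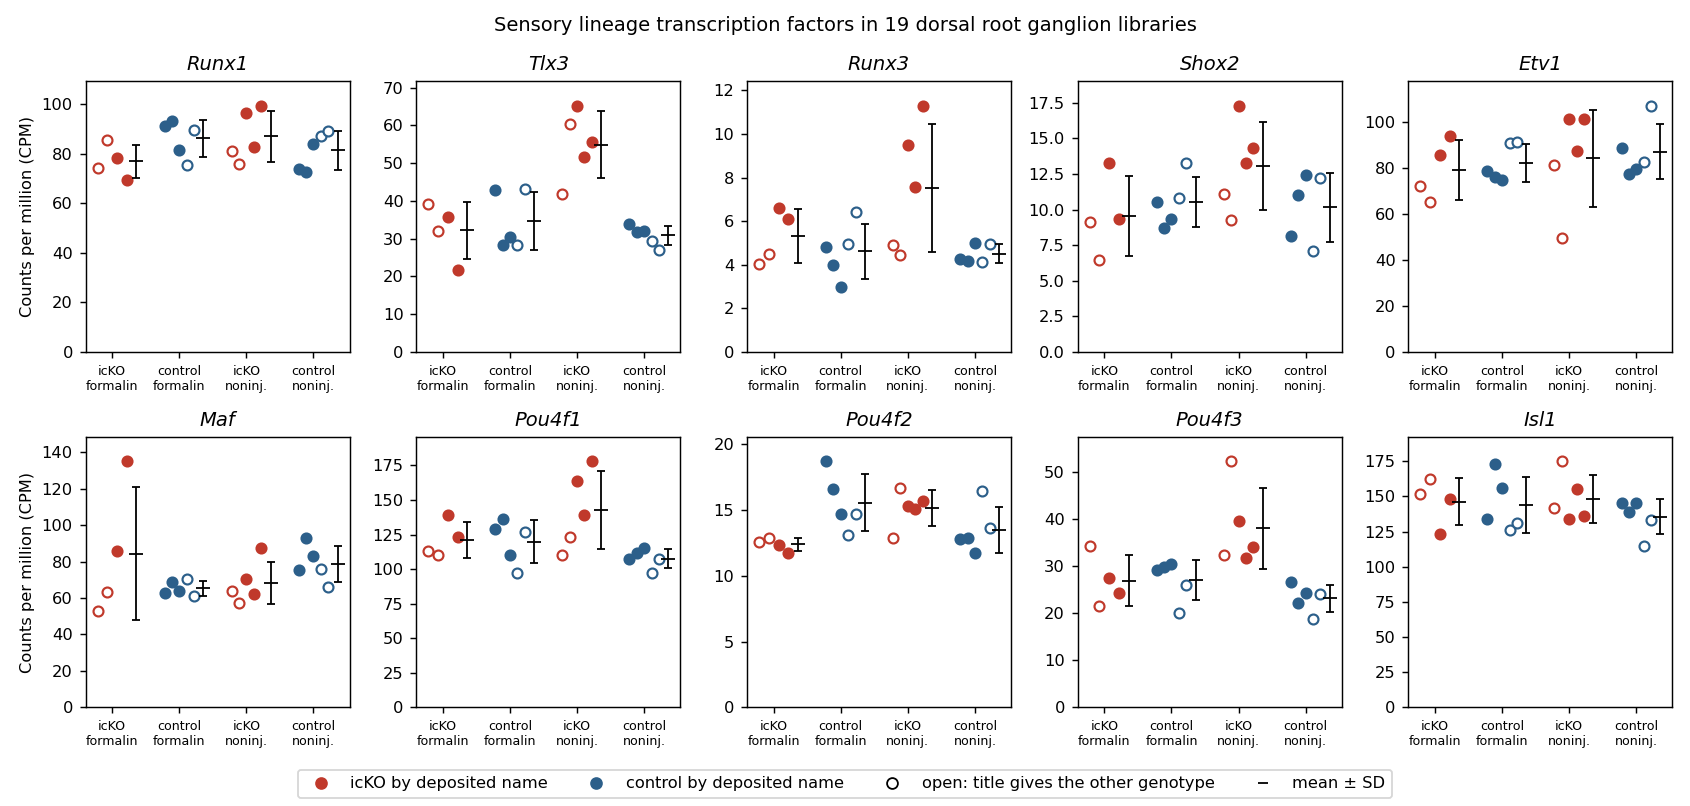
Level of each factor (CPM, vertical axis from 0) in the 4 groups of libraries, with points for libraries and bars for the mean ± SD. Open points are animals whose title gives the other genotype. In noninjected libraries Tlx3 ran from 41.7 to 65.2 CPM in icKO against 27.1 to 33.8 CPM in control, with no overlap, whereas the 4 groups of Runx1 overlap throughout.

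The genotype comparison asks which genes change when Prdm12 is lost in adult ganglia. Over animal totals of all 10 animals, 0 of the 10 factors passed the edgeR quasi-likelihood test (adjusted p under 0.05, Benjamini-Hochberg over all genes tested), against 1.09% of all genes. At an unadjusted p under 0.05 there were 3 factors, against 17.2% of all genes. DESeq2 called 2 factors, Tlx3 and Pou4f3, and 4.28% of all genes. The median log2 fold change, icKO over control, was 0.12 over the 10 factors and 0 over all genes. In whole ganglia, fewer cells of a type and less RNA per cell cannot be told apart.

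Runx1 (ENSMUSG00000022952), which keeps nonpeptidergic nociceptors on their path, did not differ beyond the spread between animals. It had 76.7, 77.7, 98, 80.1 and 82.3 CPM in the icKO animals titled control 1, control 4, icKO 1, icKO 4 and icKO 5. It had 80.8, 82.4, 83, 80.2 and 89.9 CPM in the control animals titled control 2, control 3, control 5, icKO 2 and icKO 3. The groups overlapped, and the log2 fold change was 0.01 ± 0.07 (SE, edgeR adjusted p = 0.981).

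Tlx3 (ENSMUSG00000040610), which is needed in mouse for nociceptor traits downstream of Runx1, had 39.9, 47.2, 66.3, 41.9 and 36.9 CPM in the same order of icKO animals. It had 37.5, 30.2, 31.3, 28.5 and 35.9 CPM in control animals. Only icKO 5, at 36.9 CPM, lay below the highest control animal, and the log2 fold change of 0.54 ± 0.14 did not pass (SE, edgeR adjusted p = 0.0935).

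Pou4f3 (ENSMUSG00000024497), the POU factor best known from hair cells of the inner ear, had 33.1, 38.4, 40.2, 29.1 and 28.4 CPM in icKO animals and 27.5, 25.7, 27.2, 19.3 and 25.2 CPM in control animals. Its groups did not overlap, which held for 4.16% of all genes, and Pou4f3 was the only one of the 10 factors with this separation over all animals. The log2 fold change of 0.44 ± 0.13 did not pass (SE, edgeR adjusted p = 0.129).

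Runx3 (ENSMUSG00000070691) had its highest animal totals in icKO 1, icKO 4 and icKO 5. It had 9.63 CPM in icKO 1, 6.98 CPM in icKO 4 and 8.39 CPM in icKO 5, the icKO animals on which both records agree. The icKO animals titled control 1 and control 4 had 4.38 and 4.34 CPM, although their Prdm12 was low. Control animals had 4.46, 4.08, 4.03, 4.56 and 5.77 CPM, the last in the animal titled icKO 3. By the deposited record the groups overlapped, with a log2 fold change of 0.58 ± 0.23 (SE, edgeR adjusted p = 0.245). By the titles they did not, since all 5 animals titled icKO (4.56 to 9.63 CPM) lay above all 5 titled control (4.03 to 4.46 CPM), with a log2 fold change of 0.72 ± 0.18 (SE, edgeR adjusted p = 0.419). In formalin libraries the animal titled icKO 3 stood beside icKO 4 and icKO 5. Runx3 had 4.05, 4.49, 6.62 and 6.1 CPM in icKO formalin libraries (titled control 1, control 4, icKO 4 and icKO 5), against 4.82, 3.97, 3, 4.95 and 6.4 CPM in control formalin libraries (control 2, control 3, control 5, and those titled icKO 2 and icKO 3). The values rested on 45 to 183 Runx3 counts a library, the lowest of the 10 factors.

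Etv1 (ENSMUSG00000004151), an ETS factor that links proprioceptive axons to motor neurons, also followed the titles. It had 103, 86.4 and 95.8 CPM in icKO 1, icKO 4 and icKO 5, against 75.4 and 54.5 CPM in the icKO animals titled control 1 and control 4. Control animals had 83.5, 76.9 and 77.1 CPM where both records agree, and 86.3 and 98.8 CPM in those titled icKO 2 and icKO 3. The log2 fold change was 0.01 ± 0.14 by the deposited record (SE, edgeR adjusted p = 0.979) and 0.33 ± 0.10 by the titles (SE, edgeR adjusted p = 0.449).

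**Figure D2:**
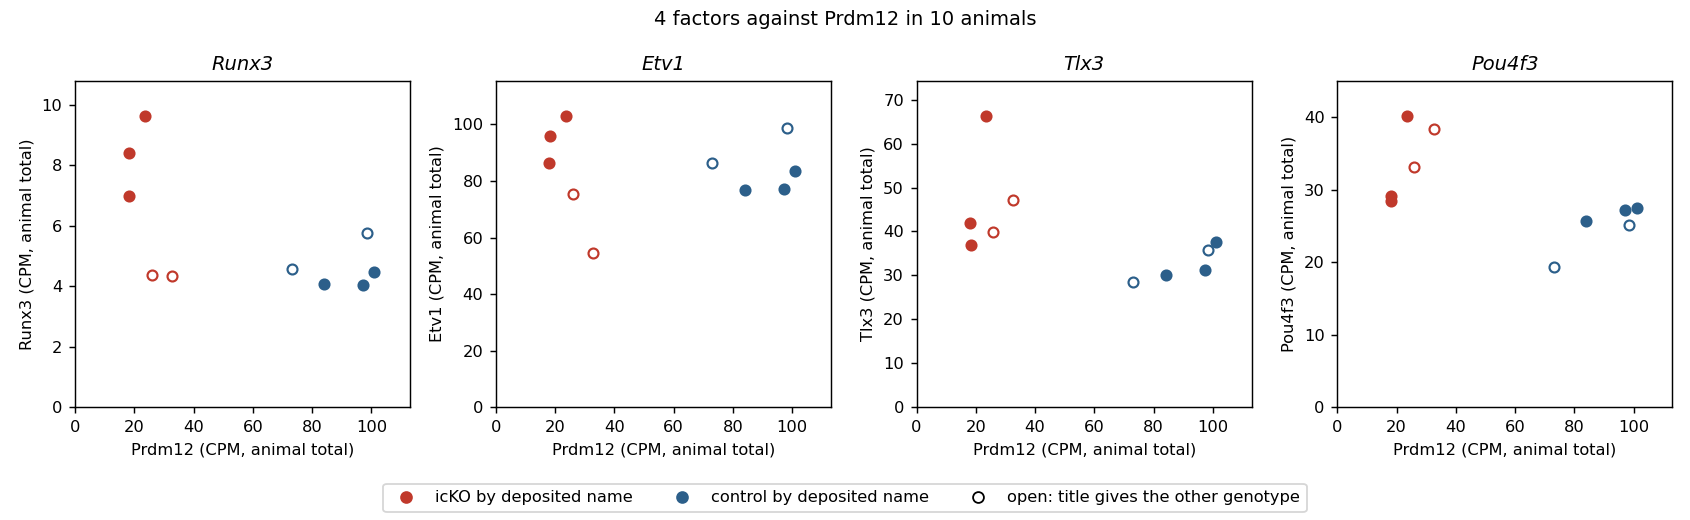
Runx3, Etv1, Tlx3 and Pou4f3 (vertical axes, CPM) against Prdm12 (horizontal axes, CPM) in animal totals of 10 animals. The open red points, icKO animals titled control, have low Prdm12 (25.9 and 32.7 CPM) with Runx3 at 4.38 and 4.34 CPM, beside the control animals, while Pou4f3 is at or above 28.4 CPM in all 5 icKO animals and at most 27.5 CPM in control animals.

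Grouped by the titles, 0 of the 10 factors and 0% of all genes passed edgeR, with 4 factors and 9.42% of all genes at an unadjusted p under 0.05. DESeq2 called 0 factors and 0.362% of all genes. Runx3 and Etv1 did not overlap between titled groups, a separation seen in 1.29% of all genes.

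In the 6 animals with agreeing records (1 female and 2 males a group), 1 of the 10 factors passed, against 0.895% of all genes in either direction and 0.602% higher in icKO. At an unadjusted p under 0.05 there were 6 factors and 19.5% of all genes, and DESeq2 called 3 factors and 5.62% of all genes. The 1 factor that passed edgeR was Runx3, with a log2 fold change of 0.98 ± 0.15 (SE, edgeR adjusted p = 0.0425). It had 9.63, 6.98 and 8.39 CPM in icKO animals and 4.46, 4.08 and 4.03 CPM in control animals. The median log2 fold change was 0.37 over the 4 large-fibre factors and 0.29 over the 2 nociceptor factors, against 0.01 over all genes. Runx3, Shox2, Etv1, Pou4f1 and Pou4f3 were higher in every icKO animal than in any control animal. With 3 animals a group, 22.5% of all genes showed such separation in either direction, so 5 of 10 is a description of these animals. For each of these 5 factors the highest total was that of icKO 1, which holds no formalin library. Shox2 (ENSMUSG00000027833), a homeodomain factor of TrkB-positive touch neurons, had 17.6, 13.3 and 11.5 CPM in icKO and 9.1, 9.99 and 10.9 CPM in control animals, and did not pass (log2 fold change 0.47 ± 0.16 SE, edgeR adjusted p = 0.192). Pou4f1 (ENSMUSG00000048349) had 167, 139 and 147 CPM in icKO and 116, 124 and 113 CPM in control animals (log2 fold change 0.36 ± 0.08 SE, edgeR adjusted p = 0.0962). The Runx3 call was lost without control 3, control 5, icKO 4 or icKO 5, and without the sex term. Without icKO 5, Tlx3 was called in its place (log2 fold change 0.60, edgeR adjusted p = 0.0471). The calls over all genes moved widely too, from 0.0423% of genes without control 3 to 7.87% without the icKO 5 formalin library. Markers of T and NK lymphocytes, which also use Runx3, had 8 of 8 positive fold changes in these animals, with a median of 0.94 and 0 calls. Their sums in noninjected libraries were 11.6, 8.14 and 11.6 CPM in icKO 1, icKO 4 and icKO 5. Control 2, control 3 and control 5 had 6.12, 13 and 6.05 CPM. Formalin libraries had 13.9 and 23.8 CPM in icKO 4 and icKO 5. Those of control 2, control 3 and control 5 had 4.26 to 8.54 CPM. The highest noninjected sum, 21.1 CPM, was in the animal titled control 4, where Runx3 was at 4.46 CPM. The part of these cells in the Runx3 result was not tested.

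The balance between nociceptor and large-fibre factors was spread more widely among icKO than among control animals. The difference of the mean log2 CPM of the nociceptor factors minus that of the large-fibre factors was 1.25 ± 0.36 in icKO and 1.17 ± 0.09 in control animals (SD, n = 5 each). The icKO animals spanned 0.79 (icKO 5) to 1.73 (titled control 4), on both sides of the control range of 1.08 to 1.32. Within the 3 agreeing icKO animals it was 1.27, 1.04 and 0.79, against 1.32, 1.14 and 1.18 in the 3 agreeing control animals. The icKO animals titled control had 1.40 and 1.73, above every control animal. In noninjected libraries the difference was 1.36 ± 0.29 in icKO and 1.08 ± 0.14 in control (SD, n = 5 each). In formalin libraries it was 1.06 ± 0.52 in icKO (n = 4) and 1.26 ± 0.2 in control (SD, n = 5). Noninjected and formalin libraries had 1.26 and 0.89 in icKO 4, and 1.11 and 0.41 in icKO 5. Maf, a large-fibre factor, was at 135 CPM in the icKO 5 formalin library. The longest transcripts of Tlx3 and Etv1 had 67.3% and 39.8% GC, with the other factors of the 2 classes between them. High-GC minus low-GC genes stood at -0.71 on the log2 scale in the icKO 5 formalin library. They stood at 0.41 in the noninjected library titled control 4, where the balance was 1.86. In the noninjected icKO 1 library they stood at 0.47, with a balance of 1.26. The part of GC content in the balance was not tested.

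**Figure D3:**
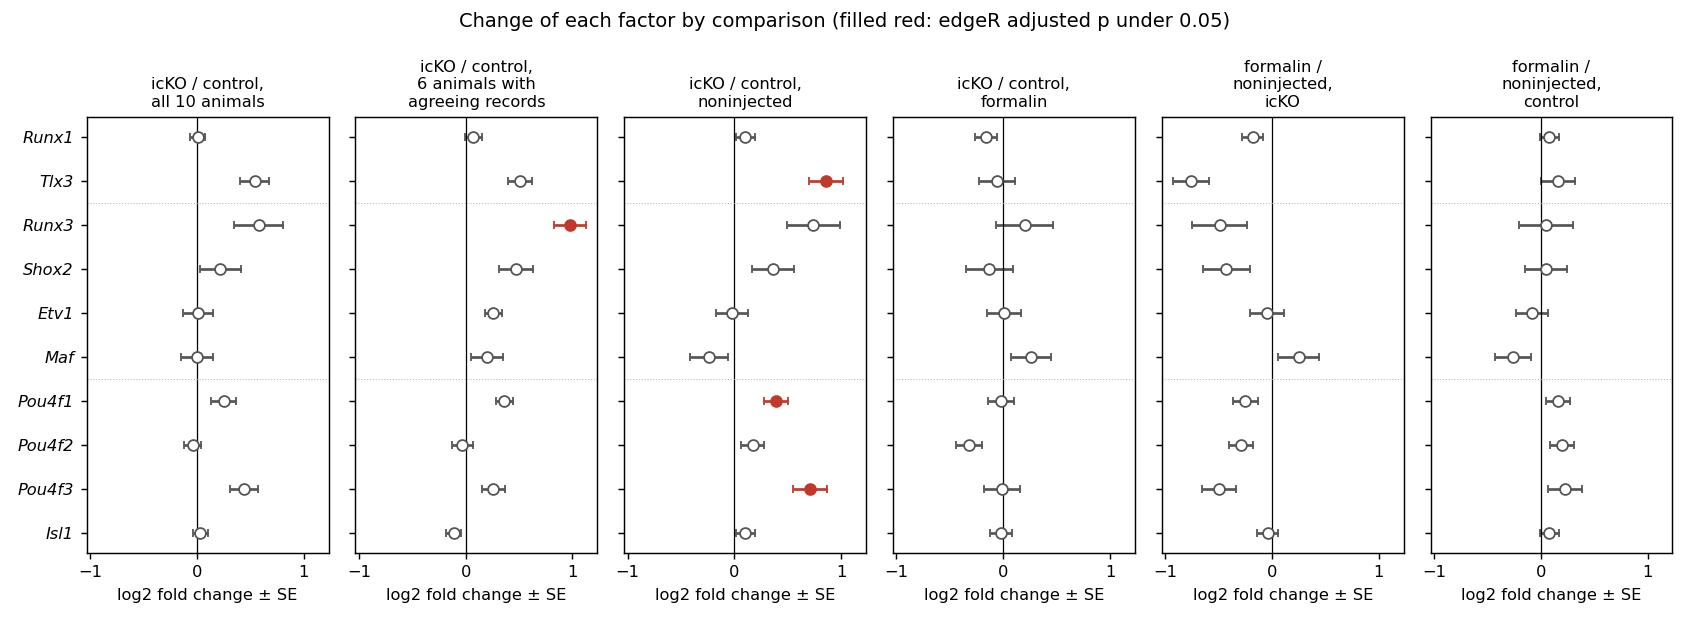
Log2 fold change ± SE of each factor (rows) in 6 comparisons (panels), with the nociceptor factors at the top, the large-fibre factors between the dotted lines and the shared factors at the bottom. Filled red points passed edgeR: Runx3 (0.98) in the 6 agreeing animals, and Tlx3 (0.86), Pou4f3 (0.71) and Pou4f1 (0.39) in noninjected libraries.

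Without injection, Tlx3 and Pou4f3 were higher in icKO than in control ganglia, and Pou4f1 was higher with overlapping groups. These 3 of 10 factors passed edgeR, against 9.38% of all genes in either direction and 5.86% higher in icKO. The fit spanned 4 groups of libraries and had no term for the animal, so both libraries of an animal counted separately. Fitted on the icKO and control noninjected libraries alone, 2 factors and 7.48% of all genes were called. The calls did not part the classes. The large-fibre factor Runx3 had a log2 fold change of 0.74 (edgeR adjusted p = 0.0642). The nociceptor factor Runx1 had 0.10 (edgeR adjusted p = 0.512). At an unadjusted p under 0.05 there were 4 factors and 26.5% of all genes, and DESeq2 called 4 factors and 12.8% of all genes. Tlx3 had 41.7, 60.3, 65.2, 51.6 and 55.7 CPM in icKO noninjected libraries (titled control 1, control 4, icKO 1, icKO 4 and icKO 5). In control noninjected libraries it had 33.8, 31.7, 32.1, 29.4 and 27.1 CPM (control 2, control 3, control 5, and those titled icKO 2 and icKO 3). Every icKO library lay above every control library, and the log2 fold change was 0.86 ± 0.16 (SE, edgeR adjusted p = 0.0044).

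Pou4f3 had 32.4, 52.2, 39.5, 31.6 and 34 CPM in icKO noninjected libraries, against 26.5, 22.1, 24.2, 18.7 and 24 CPM in control noninjected libraries. These groups did not overlap either, and the log2 fold change was 0.71 ± 0.16 (SE, edgeR adjusted p = 0.0121). Groups without overlap made up 8.43% of all genes here, and Tlx3 and Pou4f3 were the only such factors.

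Pou4f1 had 110, 123, 164, 139 and 178 CPM in icKO noninjected libraries and 107, 112, 115, 97.2 and 107 CPM in control noninjected libraries. The groups overlapped by the library titled control 1, and the log2 fold change was 0.39 ± 0.11 (SE, edgeR adjusted p = 0.0409). Runx3 had 4.89, 4.46, 9.48, 7.55 and 11.3 CPM in icKO against 4.24, 4.15, 4.99, 4.14 and 4.97 CPM in control noninjected libraries, and did not pass (log2 fold change 0.74 ± 0.25 SE, edgeR adjusted p = 0.0642). Its high libraries were again icKO 1, icKO 4 and icKO 5. Runx1, Shox2, Etv1, Maf, Pou4f2 and Isl1 had log2 fold changes between -0.24 (Maf) and 0.36 (Shox2), and none passed. The calls of Pou4f1 and Pou4f3 were lost without control 3, which left Tlx3, and Pou4f1 also lost its call without any of control 2, control 5, icKO 1, icKO 2, icKO 3, icKO 4 or icKO 5.

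The base composition of the libraries moved with this comparison. GC content was taken from the longest transcript of each gene. Among all genes, the median log2 fold change between noninjected libraries ran from -0.19 in the decile with the lowest GC content to 0.20 in the highest. Tlx3 had 67.3% GC in its longest transcript, in the highest decile, Runx3 55.9%, Pou4f3 53.7%, Pou4f1 49.8% and Etv1 39.8%, in the lowest decile. With the GC trend of each library removed, a fit added after the data were seen, Tlx3 was still called with a log2 fold change of 0.48 ± 0.08 (SE, edgeR adjusted p = 0.00121) and Pou4f3 with 0.63 (edgeR adjusted p = 0.0222). Pou4f1 then had 0.38 (edgeR adjusted p = 0.0694). The estimate for Tlx3 moved by more than that for Pou4f3. High-GC minus low-GC genes stood at 0.06 to 0.47 on the log2 scale in icKO and -0.18 to 0 in control noninjected libraries. The GC trend and genotype thus cannot be told apart here, and the part of GC content in the Tlx3 difference was not tested. The summed level of 8 sensory neuron markers, none of them at 0, was also higher in these libraries. It was 10000 ± 766 CPM in icKO and 8440 ± 593 CPM in control (SD, n = 5 each). There were 8 of 8 positive fold changes, with a median of 0.28 and 0 calls. Here and below, the 8 markers include Avil, whose neighbours parted by the deposited record, so the sum is not a neutral measure of neurons. The part of neuronal content in the result was not tested.

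**Figure D4:**
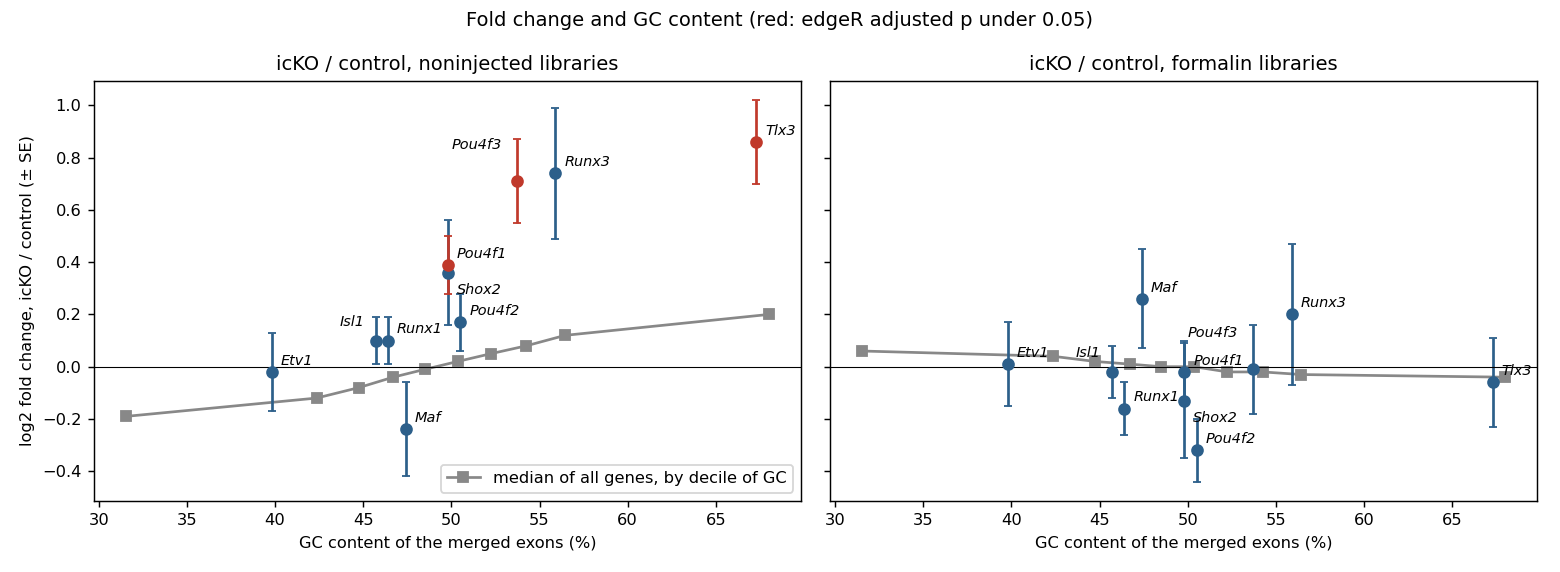
Log2 fold change (icKO over control, ± SE) against GC content (%), in noninjected and formalin libraries. The GC content is that of the longest transcript of each gene, although the axis label names the merged exons. Grey squares are the median of all genes by decile of GC content, placed at the middle of the range of each decile. In noninjected libraries the grey line rises to 0.20 and Tlx3 (67.3% GC, 0.86) and Pou4f3 (53.7% GC, 0.71) lie above it. In formalin libraries the line is nearly flat and Tlx3 lies at -0.06. The line compares groups and does not show the GC trend of single libraries.

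After formalin, the differences of Tlx3, Pou4f3 and Pou4f1 between genotypes were near 0, and Pou4f2 was the one factor whose groups did not overlap. In formalin libraries 0 of the 10 factors passed edgeR, against 3.96% of all genes, with 1 factor and 18.3% of all genes at an unadjusted p under 0.05. DESeq2 called 0 factors and 6.91% of all genes. Tlx3 had 39.2, 32, 35.8 and 21.7 CPM in icKO formalin libraries (titled control 1, control 4, icKO 4 and icKO 5) and 42.8, 28.2, 30.4, 28.3 and 43 CPM in control formalin libraries. The groups overlapped, with a log2 fold change of -0.06 ± 0.17 (SE, edgeR adjusted p = 0.9). High-GC minus low-GC genes stood at 0.07, -0.05, -0.1 and -0.71 on the log2 scale in the same order of icKO formalin libraries. Control formalin libraries had -0.28 to 0.19. The part of GC content in the Tlx3 values was not tested. Pou4f2 (ENSMUSG00000031688), the POU factor known as Brn3b, had 12.6, 12.9, 12.3 and 11.7 CPM in icKO and 18.7, 16.6, 14.7, 13.1 and 14.7 CPM in control formalin libraries. All icKO libraries lay below all control libraries, as in 5.67% of genes in either direction, and the log2 fold change of -0.32 ± 0.12 did not pass (SE, edgeR adjusted p = 0.141).

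Maf (ENSMUSG00000055435), a leucine-zipper factor of rapidly adapting touch receptors that macrophages also express, was spread widely in the icKO formalin libraries. It had 53, 63.2, 85.7 and 135 CPM there, the last in icKO 5, against 62.5, 69, 63.9, 70.3 and 60.9 CPM in control formalin libraries. The log2 fold change was 0.26 ± 0.19 (SE, edgeR adjusted p = 0.515) and -0.03 without the icKO 5 formalin library. That library also had the highest summed level of 9 macrophage markers, 503 CPM, where the other icKO formalin libraries had 172 to 269 CPM and control formalin libraries 132 to 258 CPM. It held 1640 CPM of 6 skeletal muscle markers, against 9.13 to 24.1 CPM in control formalin libraries, and the part of these cells in the Maf level was not tested. Erythroid markers summed to 865 ± 591 CPM in icKO (n = 4) and 185 ± 57.7 CPM in control formalin libraries (SD, n = 5). All 6 of 6 were called higher, against 3.05% of all genes higher and 3.96% in either direction. Their sums were 367 and 350 CPM in the icKO libraries titled control 1 and control 4, and 1270 and 1470 CPM in icKO 4 and icKO 5.

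The formalin comparison asks what changes after the irritant within each genotype. All animals but icKO 1 gave both libraries. The fold changes and p-values come from the fit over 4 groups of libraries, which is not paired by animal. Among icKO it set 4 formalin against 5 noninjected libraries, with icKO 1 (Tlx3 at 65.2 CPM, the highest) in the noninjected group only. In icKO animals 0 of the 10 factors and 0% of all genes passed edgeR, with 3 factors and 23.5% of all genes at an unadjusted p under 0.05. DESeq2 called 2 factors, Tlx3 and Pou4f3, and 6.30% of all genes. Tlx3 was lower in the formalin library in 4 of 4 icKO animals, by 0.09 to 1.35 on the log2 scale, with a log2 fold change, formalin over noninjected, of -0.76 ± 0.17 (SE, edgeR adjusted p = 0.0854). Without the animal titled control 1 it was -0.93 and passed (edgeR adjusted p = 0.018), as did 11.2% of all genes in that fit. Pou4f3 had -0.50 ± 0.16 (SE, edgeR adjusted p = 0.102) and was lower in 3 of 4 icKO animals. Pou4f2 was lower in 4 of 4, with -0.29 ± 0.11 (SE, edgeR adjusted p = 0.145). High-GC genes as a whole were lower after formalin in icKO animals, with a median log2 fold change of -0.22 in the highest decile of GC content, and with that trend removed Tlx3 had -0.35 (edgeR adjusted p = 0.227). The 8 sensory neuron markers had 1 of 8 positive fold changes here, with a median of -0.38, and summed to 8070 ± 1310 CPM in icKO formalin libraries (n = 4) and 10000 ± 766 CPM in icKO noninjected libraries (SD, n = 5). Macrophage markers had 9 of 9 positive fold changes (median 0.50) and skeletal muscle markers 6 of 6 (median 4.70), with 0 calls in these lists. From noninjected to formalin, the muscle sum went from 17.3 to 1640 CPM in icKO 5 and from 33 to 267 CPM in titled control 4. It went from 9.32 to 9.61 CPM in titled control 1 and from 26 to 26.2 CPM in icKO 4. The part of cell content in these values was not tested.

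In control animals 0 of the 10 factors and 0% of all genes passed edgeR, with 0 factors and 3.80% of all genes at an unadjusted p under 0.05, and 0 factors and 0% of all genes by DESeq2. Pou4f3 was higher in the formalin library in 5 of 5 control animals, by 0.10 to 0.42 on the log2 scale, and Maf was lower in 5 of 5. Their log2 fold changes were 0.23 ± 0.16 for Pou4f3 and -0.26 ± 0.17 for Maf (SE, edgeR adjusted p = 0.954 for both). Runx1, Runx3, Shox2, Etv1 and Isl1 lay between -0.08 and 0.08.

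The formalin response itself was compared between genotypes with an interaction term. Here 0 of the 10 factors and 0% of all genes passed edgeR, with 4 factors and 23.7% of all genes at an unadjusted p under 0.05. DESeq2 called 3 factors (Tlx3, Pou4f2 and Pou4f3) and 4.76% of all genes. The estimates, icKO minus control, were -0.92 ± 0.23 for Tlx3, -0.72 ± 0.23 for Pou4f3 and -0.49 ± 0.16 for Pou4f2 (SE, edgeR adjusted p = 0.108, 0.114 and 0.115). The 2 nociceptor factors had a median of -0.59, the 4 large-fibre factors -0.23 and all genes 0.03. The 8 sensory neuron markers had 0 of 8 positive estimates with a median of -0.49, and the genes in the highest decile of GC content a median of -0.24. The part of neuronal content in these estimates was not tested.

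**Figure D5:**
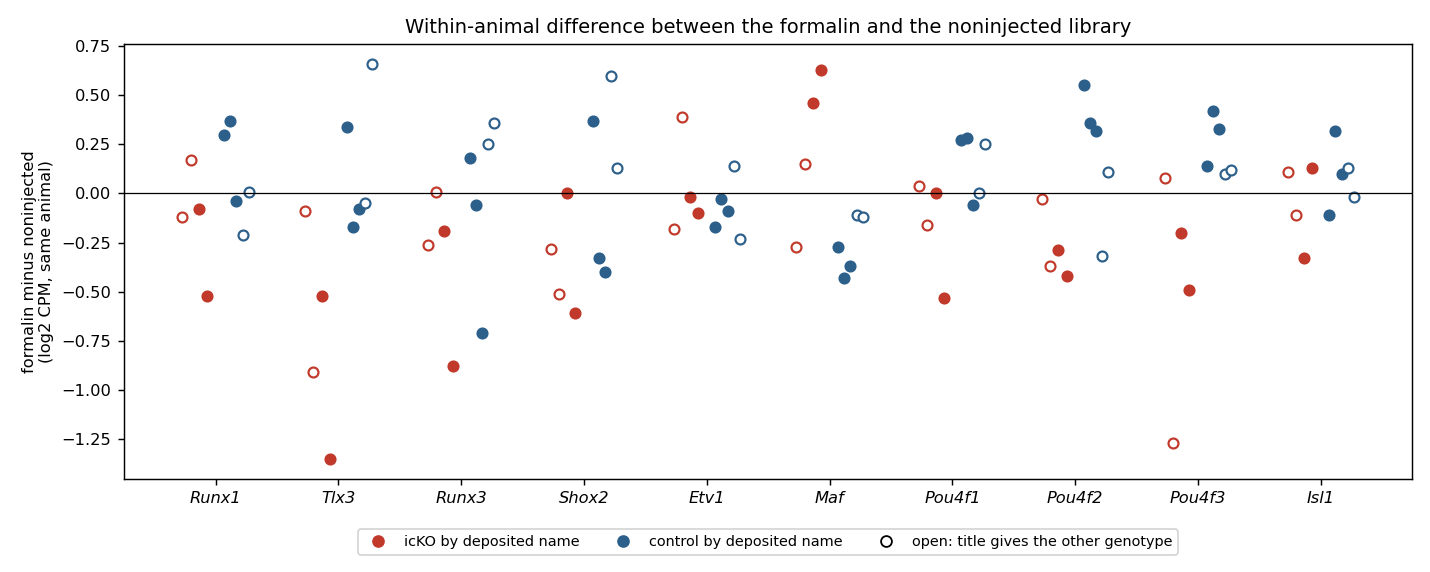
Formalin minus noninjected log2 CPM of the same animal (vertical axis) for each factor, with red points for the 4 icKO animals and blue points for the 5 control animals; open points are animals titled with the other genotype. All 4 icKO points of Tlx3 and Pou4f2 are below 0, all 5 control points of Pou4f3 are above 0 and all 5 of Maf are below 0.

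Among 42 of 46 other sensory transcription factor genes that passed the filter, 3 were higher and 1 lower over all animal totals, against 0.601% of all genes higher and 0.484% lower, and 34 of 42 had positive fold changes. Skor2, a Ski-family corepressor, averaged 18.2 ± 5.70 CPM in icKO and 5.51 ± 0.833 CPM in control animals (SD, n = 5 each), a log2 fold change of 1.77 ± 0.18 (SE, edgeR adjusted p = 0.000686). Zfhx4, a zinc-finger homeodomain gene, rose by 0.39 ± 0.06 and Ebf3, a helix-loop-helix factor, by 0.29 ± 0.06 on the log2 scale (SE, edgeR adjusted p = 0.0102 and 0.0382). Prdm12 was the one that fell. The median log2 fold change of the list was 0.16, against 0 over all genes. This list and those below were chosen with earlier results of these data known, so their counts are a description.

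Of 13 cofactor and partner genes tested, 2 were higher and 0 lower, beside the same shares of all genes (0.601% and 0.484%). Lmo1, a LIM-only protein, averaged 22 ± 1.92 CPM in icKO and 14.6 ± 1.35 CPM in control animals (SD, n = 5 each; log2 fold change 0.60 ± 0.09 SE, edgeR adjusted p = 0.00827). Runx1t1, a corepressor best known as a fusion partner of RUNX1 in human leukaemia, averaged 31.1 ± 4.02 CPM in icKO and 21.2 ± 0.411 CPM in control animals (SD, n = 5 each; log2 fold change 0.55 ± 0.09 SE, edgeR adjusted p = 0.00994).

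Of 24 genes that depend on Runx1 in mouse nociceptors, 0 were higher and 1 was lower, against 1.09% of all genes called in either direction, with a median log2 fold change of -0.16. The lower one, Mrgprb5, a Mas-related receptor, averaged 3.47 ± 0.911 CPM in icKO and 12 ± 1.37 CPM in control animals (SD, n = 5 each), a log2 fold change of -1.85 ± 0.15 (SE, edgeR adjusted p = 6.46e-05). Reads of the closely related Mrgprb genes may be split between copies. Of 17 large-fibre genes, 1 was higher and 0 lower, again against 1.09% of all genes, with a median of 0.23 and 15 of 17 positive fold changes. Ntrk3, which encodes the neurotrophin-3 receptor TrkC, averaged 538 ± 85.2 CPM in icKO and 339 ± 30.5 CPM in control animals (SD, n = 5 each), a log2 fold change of 0.70 ± 0.10 (SE, edgeR adjusted p = 0.00673). Ntrk3 ran from 407 to 636 CPM in icKO and from 300 to 383 CPM in control animals, without overlap, whereas Runx3 overlapped between the same animals.

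In formalin libraries 4 of the 24 Runx1-dependent genes were lower, against 0.905% of all genes lower and 3.96% in either direction. The fit spanned 4 groups of libraries and had no term for the animal. Fitted on the icKO and control formalin libraries alone, 0.177% of all genes were called in either direction. Leaving out 1 animal at a time gave 0.383% to 8.33%. Runx1 itself had 77 ± 6.80 CPM in icKO (n = 4) and 86.3 ± 7.40 CPM in control libraries (SD, n = 5; edgeR adjusted p = 0.42). The cold channel gene Trpm8 had a log2 fold change of -1.05 ± 0.23 and the growth factor receptor gene Ret -0.65 ± 0.15 (SE, edgeR adjusted p = 0.0241 and 0.0266), and Mrgprb5 was also among them. Sensory neuron markers had 1 of 8 positive fold changes in the same libraries (median -0.14), with 1 called lower, and summed to 8070 ± 1310 CPM in icKO (n = 4) and 9060 ± 666 CPM in control libraries (SD, n = 5); their part in the result was not tested. In noninjected libraries 2 of the 24 were higher, Sst and Lpar3, and Mrgprb5 was lower, against 5.86% of all genes higher and 3.53% lower.

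Across the 10 animal totals, the genes most like a factor by Pearson's r of log2 CPM, among 13290 genes, were named as a description. Runx3 was most like Zfpm2 (r = 0.98) and Pard3 (0.97), and Runx1 most like Rae1 (0.96), Peli3 (0.95) and Gpd1 (0.94). Pou4f1 was most like Ssbp3, Oaz2 and Tmem250-ps (0.99 each), and Isl1 (ENSMUSG00000042258) most like Tac1 (0.94), the substance P precursor, Lhcgr and Nrsn1 (0.91 each). The animals share library depth, base composition and genotype records, so the genes are named as neighbours in these 10 animals only.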

How the data were processed

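The authors deposited raw counts per Ensembl gene for 20 libraries. The submitters' processing notes list featureCounts 2.0.1, STAR 2.7.8a, bcl2fastq 2.20.0.422 and GRCm39 as the build. Annotation release and counting options: not given in the sources used here. A name table matched 52083 of 55416 identifiers. Exon lengths, GC content and overlaps came from GENCODE M21 (GRCm38).

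Counts of 19 libraries over 1000000 counts were tested with edgeR 4.0.16 (robust quasi-likelihood, TMM, filterByExpr, sex as covariate, Benjamini-Hochberg, threshold 0.05) in R 4.3.3, over animal totals for genotype and over 4 groups of libraries otherwise. The grouping by deposited record follows the rule by which the factors were set out, and the titles were used beside it. The members and lists were chosen with earlier results of these data known. Named list genes are those past the threshold with the smallest p over animal totals, at most 4 a list, and other list genes were named after their values were seen. The fits were tested on simulated data. Both libraries of an animal are paired by its title, and their deviations from group means correlated at 0.01 to 0.41. Some genes that these rules would name are not reported here.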

Additional observations from a re-analysis of the deposited data

How the results depend on the processing

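Counts of the 10 factors called depended on the tool and the filter. Over all animal totals, where edgeR called 0, DESeq2 called 2 (4.28% of all genes), no filter on low counts 4 (4.63%), and leaving out the icKO 5 formalin library 1 (1.84%). In the 6 agreeing animals, where 1 was called, DESeq2 called 3 (5.62% of all genes), no filter 4 (5.16%), no sex term 0 (0.179%), and leaving out the icKO 5 formalin library 4 (7.87%). By titles, no filter called 2 (2.18%) in place of 0. In formalin libraries the 6 agreeing animals gave 1 (9.14%) in place of 0, which was Maf. Fitted on only the 2 groups compared, 2 factors in place of 3 were called in noninjected libraries (7.48%). The same setting called 0 in formalin libraries (0.177%). For formalin in icKO, DESeq2 called 2 (6.30%), no filter 2 (5.64%) and the 6 agreeing animals 1 (2.54%), in place of 0. For the interaction, DESeq2 called 3 (4.76%) and no filter 4 (6.44%), in place of 0. Leaving out 1 animal at a time gave 0 to 1 calls over all animal totals (1 without control 1), 0 to 1 in agreeing animals, 1 to 4 in noninjected libraries (1 without control 3), 0 to 2 for formalin in icKO and 0 to 3 for the interaction (2 and 3 without control 1, with 11.2% and 9.89% of all genes). Maf turned to -0.03 in formalin libraries and -0.05 for formalin in icKO without the icKO 5 formalin library, and its leave-one-out values in formalin libraries ranged from -0.01 to 0.46. The cause of these changes was not tested. With the animal as a paired replicate block, 0 factors were called for formalin in icKO, in control and in the interaction, as without the block. Of the alternatives tried for 53 member fold changes, 880 kept direction and side of the threshold, 42 newly passed, 16 no longer passed and 3 turned. In all, 40 sets of library values were searched for outlying values and 0 were found. With 4 or 5 libraries a group, such a search cannot exclude outlying values.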

Other observations

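In the 6 animals with agreeing records, more large-fibre genes passed edgeR than over all 10 animals, 4 of 17 against 1 of 17, all higher in icKO, where 0.895% and 1.09% of all genes were called. The calls in agreeing animals moved widely, to 0.0423% of genes without control 3 and 7.87% without the icKO 5 formalin library. The 4 large-fibre genes were Ntrk3, Heg1, Calb2, which encodes calretinin, and Kcns1, a potassium channel subunit gene, at log2 fold changes of 0.85, 0.65, 0.77 and 0.84. The median of the list was 0.41, against 0.01 over all genes. Among the other sensory transcription factor genes, the homeobox gene Hoxd1 was higher (log2 fold change 0.85 ± 0.12 SE, edgeR adjusted p = 0.0385). The Groucho-family corepressor gene Tle2 was lower (-0.69 ± 0.09 SE, edgeR adjusted p = 0.0319).

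Across the 10 animal totals, Pearson's r of log2 CPM between pairs of the 10 factors ran from -0.73 (Etv1 with Isl1) to 0.88 (Tlx3 with Pou4f3). Runx3 had 0.87 with Pou4f1 and 0.81 with Shox2, and Runx1 had 0.83 with Shox2. In formalin libraries, macrophage markers had 9 of 9 positive fold changes, with 1 called higher, against 3.05% of all genes.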
